A study of Sus scrofa with 15 samples.

Results

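Pig 4-cell embryos made by somatic cell nuclear transfer after induced expression of *TDG* (SCNT4c-TDG) were compared with those made after *KDM4A* injection plus GSK126 (SCNT4c-KG). The comparison used 6 of the 15 RNA-seq libraries in the series, 3 in each group, and 43294 features (annotated genes and transcripts assembled from the reads). The other 9 libraries were untreated 4-cell embryos (SCNT4c), 8-cell embryos (SCNT8c) and the porcine fetal fibroblasts (PFF) that serve as nuclear donors, with 3 libraries each. Each embryo library was made from a pool of 30 embryos.

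For SCNT4c-TDG, the donor fibroblasts had been transfected with a doxycycline-inducible *TDG* vector built on the TLCV2 backbone and selected in puromycin for 7 d, and the embryos were kept in 500 ng/mL doxycycline from 40 to 72 h after activation. For SCNT4c-KG, unmodified donor cells were used, the embryos were injected with 1000 ng/µL of pig *KDM4A* mRNA at 5 h, and were cultured in 0.1 µM GSK126 from 0 to 48 h. All 3 kinds of 4-cell embryo share the enucleated oocyte, the electrical activation and the culture medium, and the untreated SCNT4c carry none of these agents. The donor line, doxycycline, the injection and the inhibitor therefore differed between the groups together with the intended removal of DNA or histone methylation, and their parts cannot be told apart. The identifiers of the SCNT4c-TDG samples stand apart from those of all other groups, and no batch of preparation or sequencing is known here. Any such batch could not be told apart from the treatments either. No library from doxycycline without the vector or from a mock injection was analysed here. The labels of SCNT4c-KG and SCNT4c conflict. Columns were assigned by their headers and the sample titles, both of which name KG, but the descriptions of the samples titled KG carry the names of the untreated columns, and read alone they would exchange SCNT4c-KG and SCNT4c. Every value below given for either group, and each direction drawn from it, rests on the headers and titles. In the columns named KG the mean of *KDM4A*, whose mRNA that group received, was 1448, and in those named as untreated 194. This does not settle which labels are right, since *KDM4A* was also higher than in the untreated columns in SCNT4c-TDG, which received none of that mRNA, by 2.08 on the log2 scale. Genes that neither agent supplies differed in both directions between the columns named KG and untreated. Their means were 4366 and 1713 for *TDG*, 290 and 5.95 for *DNMT1*, 89.4 and 666 for *DNMT3B*, 14770 and 756 for *TFAP2C*, and 12873 and 3415 for *SUPT4H1*. The study reports *TFAP2C* and *SUPT4H1* raised by the treatment in qPCR. From RNA-seq it reports *DNMT1* and *DNMT3B* lowered and *TDG* not rescued. *TFAP2C*, *SUPT4H1* and *DNMT3B* thus went the way it reports under the headers, and *DNMT1* and *TDG* did not. Were the groups exchanged, the comparison of interest would be the fit of SCNT4c-TDG against the columns named as untreated, with 2969 features higher and 3331 lower. Titles and descriptions also number the untreated libraries differently, so these are called a, b and c. Nothing in the labels says whether the pools of one group came from separate transfer sessions, so p-values measure only the spread between these pools.

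TDG is a thymine DNA glycosylase: it cuts out the oxidised forms of 5-methylcytosine that TET enzymes produce, and base excision repair then restores an unmodified cytosine. KDM4A removes methyl groups from lysine 9 of histone H3, a mark of compact chromatin, and GSK126 blocks EZH2, the subunit of Polycomb repressive complex 2 (PRC2) that methylates lysine 27. In pig embryos the major wave of embryonic genome activation (EGA) falls around the 4-cell stage, when maternal transcripts are replaced by transcripts of the embryo's own genome, and this step is often incomplete in cloned embryos.

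Values are normalised read counts, in which the authors divided each library's counts by a size factor. Recovered reads ranged from 17757929 to 19564459 in SCNT4c-TDG and from 12354649 to 15390472 in SCNT4c-KG, and features with at least 10 reads from 18289 to 18561 and from 15831 to 16762. Features averaging 10 or more in the 12 embryo libraries were tested with limma on log2(value + 1), and a feature was called when the Benjamini-Hochberg adjusted p was below 0.05 and the fold change above 2. A log2 fold change is SCNT4c-TDG minus SCNT4c-KG throughout, with its standard error (SE), and it understates the change of low genes.

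Of 18942 features tested, 3070 (16.2%) were called, 1340 (7.07%) higher and 1730 (9.13%) lower in SCNT4c-TDG than in SCNT4c-KG. The count of each gene list below is to be read beside these shares. The median of all log2 fold changes was -0.02. In pools of embryos, fewer cells of a type and less RNA per cell cannot be told apart. Called features differed by a median of 2.21 on the log2 scale where higher and 2.27 where lower, and 788 and 1049 of them differed more than 4-fold. Replicates did not overlap for 3057 of the 3070 and for 44.4% of all tested features. Called features were picked for large differences in these same libraries, so their lack of overlap is no added evidence. When every library was instead scaled to the same total, the median moved to 0.33 and the split to 2051 higher and 1145 lower, so directions below are relative to the median of all features under the authors' scaling. Leaving out 1 SCNT4c-KG library gave 2019 to 2521 calls and leaving out 1 SCNT4c-TDG library 1794 to 1878. Without length and GC effects (described last), 715 of 12745 annotated genes were higher (5.61%) and 1102 lower (8.65%), where the same genes uncorrected gave 1172 and 1424.

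Untreated embryos did not sit on one side of this comparison. Among the 1340 features higher in SCNT4c-TDG, the SCNT4c mean lay between the 2 treated groups for 674, above both for 401 and below both for 265. Among the 1730 lower features it lay between for 701, below both for 608 and above both for 421. Each treated group was also fitted against the same 3 untreated libraries: 2969 features (15.7%) were higher and 3331 (17.6%) lower in SCNT4c-TDG, and 3335 (17.6%) were higher and 3719 (19.6%) lower in SCNT4c-KG.

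The targeted enzymes were examined first. *TDG* had normalised read counts of 56925, 59944 and 49857 in the SCNT4c-TDG libraries and 4474, 3886 and 4738 in the SCNT4c-KG libraries, against 1659.5, 939 and 2541 in SCNT4c. The treated groups did not overlap, and the log2 fold change was 3.67 (SE 0.31, limma adjusted p = 7.04e-06). The exact two-sided permutation test gave p = 0.1, the smallest that 3 against 3 can reach. Reads of the vector and of the embryo's own *TDG* cannot be told apart in a count per gene. *TDG* was also higher in SCNT4c-KG than in SCNT4c, by 1.46 on the log2 scale (limma adjusted p = 0.0020).

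*KDM4A* was at 852, 555 and 918 in SCNT4c-TDG and at 1437, 1476 and 1429 in SCNT4c-KG, the group that received its mRNA. These did not overlap, but the log2 fold change of -0.93 (SE 0.48, limma adjusted p = 0.204; exact permutation p = 0.1) did not pass the test. In SCNT4c it was at 313, 136 and 134, and both treated groups were higher than that, by 2.08 and 3.01 on the log2 scale. *EZH2*, whose product GSK126 inhibits, was at 1208, 1179.8 and 983 in SCNT4c-TDG and 915, 1027 and 1245 in SCNT4c-KG. The groups overlapped (log2 fold change 0.09, SE 0.38, limma adjusted p = 0.911).

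**Figure D1:**
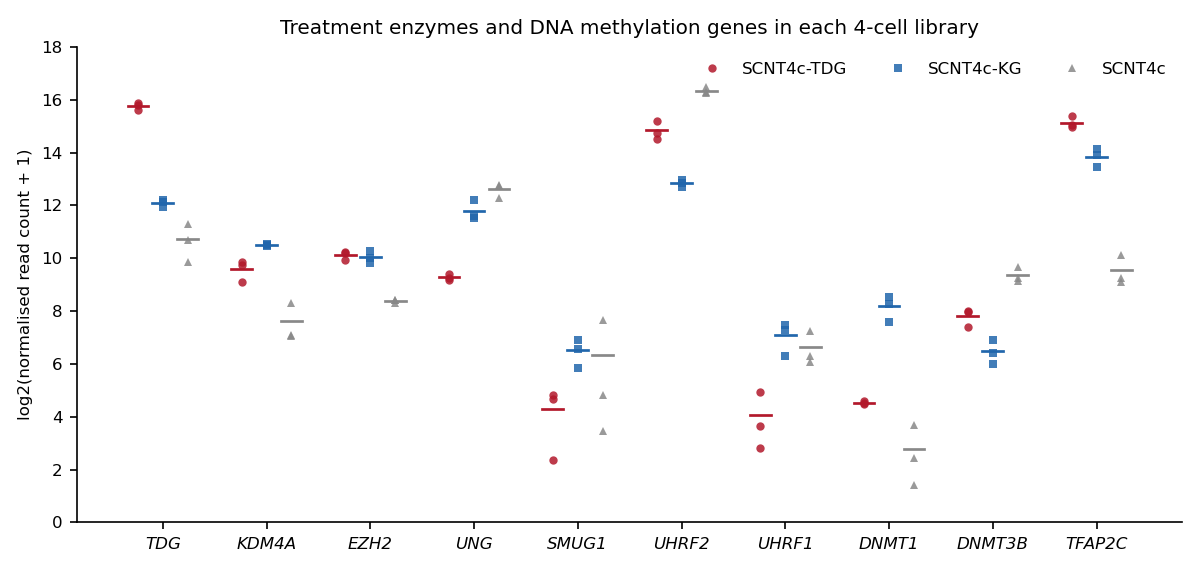
Normalised read counts, as log2(value + 1), of 10 genes of the treatments and of DNA methylation in the 9 libraries of 4-cell embryos. Points are libraries and bars are group means; TDG and TFAP2C stand higher in SCNT4c-TDG than in SCNT4c-KG, while UNG, UHRF1 and DNMT1 stand lower.

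The machinery that writes and keeps DNA methylation was lower in SCNT4c-TDG at 4 of 11 tested members and higher at 1, with a list median of -0.84. Over all features 9.13% were lower and 7.07% higher. Corrected for length and GC, 3 were lower and none higher. With the same total in each library 2 were lower and 1 higher, and the 21 alternatives gave 2 to 7 calls. *DNMT1*, the maintenance methyltransferase, was at 21.7, 21.5 and 23.0 in SCNT4c-TDG and at 310.4, 367 and 192 in SCNT4c-KG. The difference on the log2 scale was -3.61 (SE 0.75, limma adjusted p = 0.00436), and SCNT4c was lower still, at 11.8, 4.37 and 1.66. *UHRF1*, which brings DNMT1 to replicated DNA, had means of 15.9 ± 12.4 (SD, n = 3) and 137 ± 52.1 and fell by 3.21 on the log2 scale (SE 0.96, limma adjusted p = 0.0329). *HELLS*, a chromatin remodeller needed for DNA methylation, was called lower as well. *UHRF2*, the paralog of *UHRF1*, went the other way: it was at 23262, 27776 and 38077 in SCNT4c-TDG and at 6663, 7357 and 7982 in SCNT4c-KG, a log2 fold change of 1.99 (SE 0.58, limma adjusted p = 0.0295). Its SCNT4c libraries were higher than both, from 79138 to 90597. *DNMT3B*, a de novo methyltransferase, had means of 224 and 89.4 and was not called (limma adjusted p = 0.207), and *DPPA3*, a maternal factor that protects DNA methylation, had means of 34780.4 and 23345 (limma adjusted p = 0.384). *DNMT3A* and *DNMT3L* were too low to test. *TRIM28*, *ZFP57* and *MBD3* were listed at 0 in all 6 libraries, which does not show that they were not expressed. *UHRF2* lost the call whichever 1 of the 6 libraries was left out (limma adjusted p of 0.059 to 0.113). *UHRF1* was not called without SCNT4c-KG replicate 1 or 2 or SCNT4c-TDG replicate 1 or 2 (limma adjusted p of 0.0946 to 0.136).

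Among the enzymes of active demethylation, *TDG* itself was the only one of 12 tested that was called higher, and 2 were lower, with a list median of -0.91 that became -0.18 after correction for length and GC. *UNG*, the uracil glycosylase, was at 608, 686 and 584 in SCNT4c-TDG and at 3104, 2943 and 4688 in SCNT4c-KG (log2 fold change -2.48, SE 0.37, limma adjusted p = 0.000462). SCNT4c was at 4964, 7020.5 and 6888, so the untreated level lay nearer SCNT4c-KG. *GADD45B*, a stress-induced factor linked to demethylation, was called lower with means of 536 and 1940.2. *SMUG1*, a further uracil glycosylase, did not overlap and was not called (means 18.8 and 90.8, limma adjusted p = 0.0804). *TET1*, *TET2* and *TET3* were listed at 0 in all 6 libraries, which does not show that they were not expressed. Of the repair steps after the glycosylase, 1 of 20 tested genes was called (1 to 5 under the 21 alternatives), beside 16.2% over all features, with a list median of -0.48 that became -0.05 after correction for length and GC: the flap endonuclease *FEN1* was at 2.51, 2.30 and 3.83 in SCNT4c-TDG and at 86.6, 154 and 45.6 in SCNT4c-KG (limma adjusted p = 0.000762). *PCNA*, the sliding clamp, had overlapping groups with means of 53868 and 41286. *GADD45B* was not called without SCNT4c-KG replicate 1 or 2 or SCNT4c-TDG replicate 1 or 2 or 3 (limma adjusted p of 0.0648 to 0.13).

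Since SCNT4c-TDG was aimed at methylated CpG, promoter sequence is shown for 2 genes that were lower and differ in CpG content. The 250 bases before the annotated start in RefSeq's Sscrofa11.1 annotation are given 5′ to 3′ on the gene's strand, with each CpG in capitals. They are *DNMT1* and the ribosomal protein gene *RPS20*.
DNMT1 (chr2:69040365-69040614, minus strand): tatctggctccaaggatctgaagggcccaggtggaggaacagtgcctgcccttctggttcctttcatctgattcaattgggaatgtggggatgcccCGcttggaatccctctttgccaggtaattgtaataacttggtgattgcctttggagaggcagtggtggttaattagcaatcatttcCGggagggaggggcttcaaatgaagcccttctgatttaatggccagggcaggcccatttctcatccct
RPS20 (chr4:75761959-75762208, plus strand): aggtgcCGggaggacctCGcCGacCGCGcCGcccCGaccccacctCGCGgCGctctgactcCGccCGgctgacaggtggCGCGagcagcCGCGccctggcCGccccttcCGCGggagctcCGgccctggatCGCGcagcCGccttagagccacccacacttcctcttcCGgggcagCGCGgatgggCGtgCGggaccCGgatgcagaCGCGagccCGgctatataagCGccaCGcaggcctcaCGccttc

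These windows hold 2 and 35 CpG. The median over 19469 promoters of the same length was 12 (quartiles 4 and 22), and 15.6% of them held 2 or fewer, as the annotated *DNMT1* start does. Counting 50 more bases past the start, promoters of 995 genes higher in SCNT4c-TDG held a median of 22 CpG and those of 1166 lower genes 21, beside 19 for 8317 genes not called. Promoters with an observed-to-expected CpG ratio above 0.6 made up 74.1% of the higher genes, 70.5% of the lower genes and 63.1% of those not called.

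Genes that read, write or erase histone methylation moved in both directions. For H3K9 methylation, 3 of 21 tested members were higher and 3 lower, beside 7.07% higher and 9.13% lower over all features, with a list median of -0.01. *KDM4C*, an H3K9 demethylase of the same family as *KDM4A*, was at 103, 131 and 168 in SCNT4c-TDG and at 17.97, 25.4 and 19.9 in SCNT4c-KG (log2 fold change 2.60, SE 0.56, limma adjusted p = 0.0057). The methyltransferase *SETDB2* was higher with means of 378 and 102, whereas *SUV39H1*, another one, was lower with means of 22.0 and 122. *CBX1*, a heterochromatin protein that binds methylated H3K9, was at 337, 383 and 422 against 1086, 1471 and 1006 (limma adjusted p = 0.00173), and its relative *CBX3* was called lower too. Corrected for length and GC, 1 of the 21 was higher and 4 lower, whereas 5 were higher and 2 lower with the same total in each library. *CBX5*, of the same family, fell by 0.94 on the log2 scale, short of 2-fold. *SUV39H1* was not called without SCNT4c-KG replicate 2 or SCNT4c-TDG replicate 1 or 3 (limma adjusted p of 0.0648 to 0.0948).

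PRC2 genes were higher at 2 of 12 tested, and none was lower, beside 7.07% higher and 9.13% lower over all features. The list median was 0.15, and the 21 alternatives gave 1 to 4 calls. *SUZ12*, a core subunit, was at 3739, 2563 and 2917 in SCNT4c-TDG and at 582, 706 and 745 in SCNT4c-KG (log2 fold change 2.17, SE 0.48, limma adjusted p = 0.00656). *EZH1*, the second catalytic subunit, had means of 732 ± 52.7 and 259.5 ± 122 (SD, n = 3) and was called higher. *EED* and *RBBP4* were not called. In PRC1, which ubiquitinates histone H2A at Polycomb targets, 3 of 18 were higher and 2 lower, beside the same shares over all features. The PRC1 median was 0.06, and the alternatives gave 2 to 6 calls. *BMI1*, *RNF2* and *KDM2B* were higher: *BMI1* was at 1709, 1059 and 960.3 against 149, 141 and 514 (limma adjusted p = 0.0105). *PCGF1* was lower, with means of 3441 and 8435, and *CBX8* was at 0, 0 and 1.53 against 80.04, 39.3 and 15.7, which is 2 reads in all of SCNT4c-TDG. The correction for length and GC left 1 PRC1 gene higher and 2 lower, with *PCGF1* not called (log2 fold change -0.67, limma adjusted p = 0.159), and 1 PRC2 gene higher. Of 28 tested developmental regulators that PRC2 silences in other cells, none was higher and 3 were lower, *PAX6*, *IRX3* and *ISL1*, a share near the 9.13% over all features, with a list median of -0.40. None of 20 tested HOX genes was called. The HOX median was 0.49, and 21 alternative settings gave 0 to 2 calls. *EZH1* was not called without SCNT4c-KG replicate 1 or SCNT4c-TDG replicate 1 or 2 or 3 (limma adjusted p of 0.0636 to 0.106). *BMI1* was not called without SCNT4c-KG replicate 1 or 2 or SCNT4c-TDG replicate 1 (limma adjusted p of 0.0527 to 0.0555). *KDM2B* was not called without SCNT4c-KG replicate 1 or 2 or SCNT4c-TDG replicate 1 or 2 (limma adjusted p of 0.0612 to 0.0839). *PCGF1* was not called without SCNT4c-TDG replicate 2 or 3 (limma adjusted p of 0.0506 to 0.0584). *IRX3* was not called without SCNT4c-KG replicate 1 or 2 or SCNT4c-TDG replicate 1 or 3 (limma adjusted p of 0.066 to 0.121). *ISL1* was not called without SCNT4c-KG replicate 1 or 2 or SCNT4c-TDG replicate 1 or 2 or 3 (limma adjusted p of 0.0565 to 0.157).

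Other chromatin regulators differed singly. The acetyltransferase *CREBBP* was higher, with means of 351 and 95.1, and the list of histone acetylation genes held 4 higher and 3 lower of 20, with a median of -0.18. Over all features 7.07% were higher and 9.13% lower. The H3K4 methyltransferase *KMT2A* was at 31.8, 36.8 and 64.3 against 397, 268 and 486 (log2 fold change -3.11, SE 0.46, limma adjusted p = 0.000453). It was 1 of 2 called, both lower, among 11 H3K4 methylation genes, which had a median of -0.07. With the length and GC correction the acetylation list held 2 higher and 2 lower and the H3K4 list 1 lower, and with the same total the H3K4 list held 2 higher and 1 lower. *CREBBP* was not called without SCNT4c-KG replicate 1 or 3 or SCNT4c-TDG replicate 1 or 2 or 3 (limma adjusted p of 0.0869 to 0.164).

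The transcription and nucleolar machinery that rises at genome activation was lower in SCNT4c-TDG at 9 of 23 tested genes and higher at 1, the CCAAT-binding factor subunit *NFYB*, with a list median of -0.60. Calls in either direction numbered 9 to 11 under all 21 alternatives that could be run on this list, and 9 were lower after correction for length and GC. *DKC1*, the pseudouridine synthase of small nucleolar and telomerase particles, was at 1003, 809 and 934 in SCNT4c-TDG and at 11400.3, 14119 and 15512 in SCNT4c-KG. This was a log2 fold change of -3.89 (SE 0.33, limma adjusted p = 7.04e-06), and SCNT4c, at 683, 1363 and 927, overlapped SCNT4c-TDG. *POLR2A*, the large subunit of RNA polymerase II, was at 184, 203 and 125 against 1411, 1416 and 788 (limma adjusted p = 0.000944). The small polymerase subunit *POLR2L* was at 1645, 1519 and 1583 against 17080.0, 18459 and 9549.9, and at 33.2 to 92.3 in SCNT4c. Both polymerase genes were above SCNT4c in each treated group: by 1.86 and 4.64 on the log2 scale for *POLR2A* and by 4.84 and 8.03 for *POLR2L*, in SCNT4c-TDG and SCNT4c-KG. The nucleolar proteins *NOP56* and *NOP58*, the RNA-binding proteins *HNRNPA1* and *HNRNPA2B1*, the Pol I factor *UBTF* and the Pol III subunit *POLR3K* were called lower as well. *NPM1*, a nucleolar chaperone, had means of 50388 and 76226 (limma adjusted p = 0.0667).

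Genes that the study itself followed up were chosen on these samples, so their counts are not independent evidence: of 12 tested, 1 was higher and 4 lower, with a median of -0.43. *TFAP2C*, a transcription factor of early embryos and trophoblast, was at 32218, 33428 and 42616 in SCNT4c-TDG, at 15340.3, 17839 and 11132 in SCNT4c-KG and at 544 to 1118 in SCNT4c. It was higher in SCNT4c-TDG than in SCNT4c-KG by 1.304 on the log2 scale (SE 0.31, limma adjusted p = 0.00992). The deubiquitinase *USP5* and the gene *RTFDC1* were lower, with means of 190.0 and 976 for *USP5* and 3161 and 8759 for *RTFDC1*. With the length and GC correction *RTFDC1* was not called (log2 fold change -0.63, limma adjusted p = 0.131). *SUPT4H1*, an elongation factor subunit, was at 14029.6, 16862 and 14889.9 against 13192, 14040.5 and 11385 and was not called (limma adjusted p = 0.615), while both groups were above SCNT4c by 2.17 and 1.93 on the log2 scale. *CSTF1*, *GAPDH* and *TRIM8* were not called either, and their groups overlapped. *KLF17*, *PNRC1*, *UBTFL1*, *ZSCAN4* and *SELENOP* were too low to test; the largest value among them in these 6 libraries was 39.3, for *PNRC1* in an SCNT4c-KG library, and *KLF17* was listed at 0. *TFAP2C* was not called without SCNT4c-TDG replicate 3 (limma adjusted p = 0.0565).

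Cytosolic ribosomal protein genes were lower in SCNT4c-TDG at 61 of 69 tested, none was higher, and the list median was -1.91. *RPS20* was at 9204, 9474 and 10196 in SCNT4c-TDG and at 195311, 163374 and 131601 in SCNT4c-KG (log2 fold change -4.07, SE 0.27, limma adjusted p = 1.32e-06). *RPS25* was at 856, 894 and 865 against 13591, 16665 and 12963. The 8 members not called, *RPL4*, *RPL6*, *RPL7*, *RPL17*, *RPL19*, *RPS2* and *RPS15A* among them, also had negative log2 fold changes, from -0.20 to -1.499. Together these genes took 2.24% to 2.54% of recovered reads in SCNT4c-TDG, 7.08% to 8.25% in SCNT4c-KG and 0.62% to 0.99% in SCNT4c. Against SCNT4c, 56 of 69 were higher in SCNT4c-TDG (median 2.46) and 63 in SCNT4c-KG (median 5.06). Ribosomal protein transcripts are short (median 746.5 bases over the list), and after correction for length and GC 33 of 68 were lower, with a median of -1.11. Many of these genes have near-identical processed copies in the genome, and per the study's methods uniquely mapped reads were kept, so their levels are uncertain and the effect on this comparison was not tested.

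Oxidative phosphorylation draws on subunits from both the nuclear and the mitochondrial genome. Of 49 tested subunits encoded in the nucleus, 19 were lower, none higher, and the median was -1.01. *SDHC*, of complex II, was at 82.0, 107 and 30.6 in SCNT4c-TDG and at 829.8, 727 and 774 in SCNT4c-KG (log2 fold change -3.57, SE 0.49, limma adjusted p = 0.000274). *NDUFA8*, of complex I, was lower with means of 45.1 and 404. These calls depended on length and GC: after the correction 6 were lower and 1 higher, the median was -0.22, and *COX6A1*, of complex IV, changed from -1.001 to 0.24. *COX6A1* lost the call whichever 1 of the 6 libraries was left out (limma adjusted p of 0.0573 to 0.123). *NDUFA8* was not called without SCNT4c-KG replicate 1 or 2 or SCNT4c-TDG replicate 3 (limma adjusted p of 0.0507 to 0.0559).

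Of the 4 genes of the mitochondrial genome that could be tested, 2 were higher, or 3 with quantile normalization and 4 with the same total in each library. *CYTB*, of complex III, was at 710784, 791242 and 746487 in SCNT4c-TDG and at 245364, 177012 and 191017 in SCNT4c-KG (log2 fold change 1.89, SE 0.23, limma adjusted p = 0.000129), and *ND5*, of complex I, had means of 424946 and 141533 (log2 fold change 1.59, SE 0.24, limma adjusted p = 0.000475). All features of the mitochondrial chromosome together took 8.26% to 9.42% of recovered reads in SCNT4c-TDG, 1.76% to 2.47% in SCNT4c-KG and 0.91% to 1.39% in SCNT4c. The other 9 of its 13 protein-coding genes were listed at 0 in all 6 libraries. In pools of embryos, more mitochondria per embryo and more transcript per mitochondrion cannot be told apart.

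**Figure D2:**
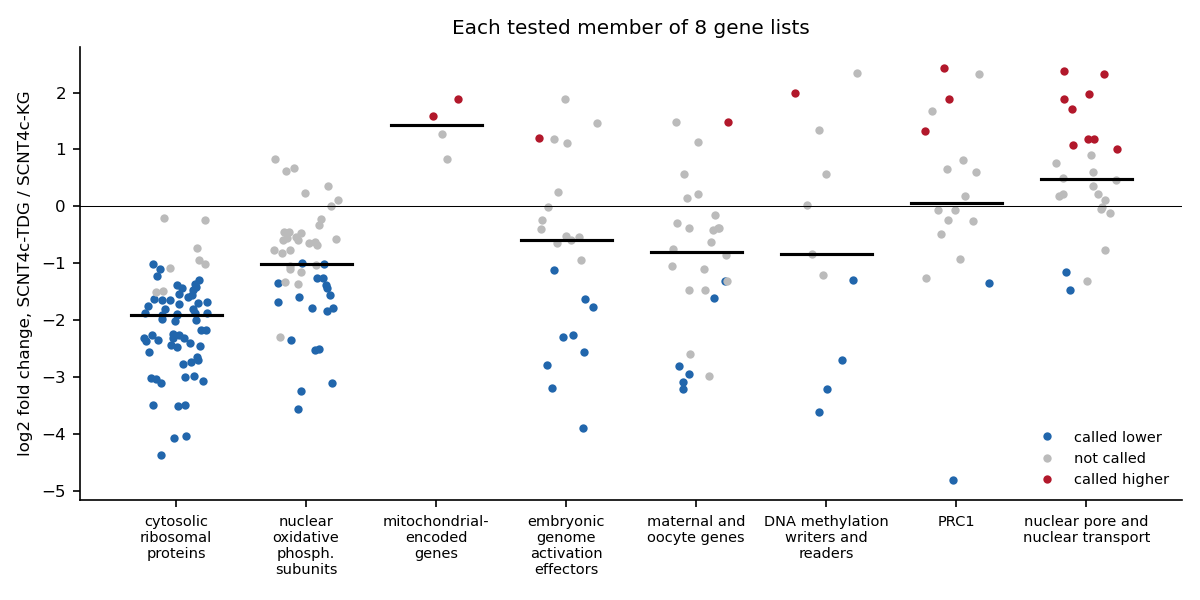
Log2 fold change, SCNT4c-TDG against SCNT4c-KG, of each tested member of 8 gene lists; a black bar marks the list median and colour marks the call. Ribosomal protein genes lie below 0 as a list (61 of 69 called lower, median -1.91), nuclear pore genes lie mostly above it (9 of 26 called higher, median 0.48).

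Maternal and oocyte transcripts were lower in SCNT4c-TDG at 6 of 28 tested and higher at 1, the cyclin *CCNB2*, with a median of -0.80. *PADI6*, a component of the oocyte's cytoplasmic lattices, was at 1657, 1385 and 982 in SCNT4c-TDG, at 14115, 9391 and 13416 in SCNT4c-KG and at 22896, 26109 and 31904 in SCNT4c (log2 fold change -3.21, SE 0.34, limma adjusted p = 3.97e-05). The oocyte linker histone *H1FOO* was at 10947, 9619 and 12856 against 111397, 96013 and 43449 (limma adjusted p = 0.0027), and SCNT4c, from 92764 to 135057, was on the side of SCNT4c-KG. *NPM2*, an oocyte histone chaperone, *ZP4*, a zona pellucida protein, and *UCHL1* had the same order, with SCNT4c highest and SCNT4c-TDG lowest. *ZP3*, another zona protein, had means of 74.6 and 667 but was lowest in SCNT4c, at 28.1. With the length and GC correction 3 of the 28 were lower and 1 higher, and *ZP3* was not called (limma adjusted p = 0.0609). Its log2 fold change still lay between -3.38 and -2.20 under all 21 alternatives. Against SCNT4c, 12 of the 28 were lower and 4 higher in SCNT4c-TDG (median -1.05), and 9 were lower and 6 higher in SCNT4c-KG (median -0.56). Among genes that degrade or mark maternal mRNA, 6 of 30 were higher and 4 lower, with a median of 0.48: the m6A readers *YTHDF3* (means 242 and 26.7) and *YTHDC2* (means 523 and 102) were higher, and the deadenylase *CNOT8* was at 0, 2.30 and 5.36 against 78.4, 68.5 and 84.1. The higher calls depended on the processing: corrected for length and GC the decay list held 0 higher and 4 lower, with *YTHDF3* (limma adjusted p = 0.121) and *YTHDC2* (limma adjusted p = 0.0651) not called, and scaled to the same total it held 10 higher and 2 lower. *YTHDF3* was not called without SCNT4c-KG replicate 1 or SCNT4c-TDG replicate 1 or 2 (limma adjusted p of 0.0552 to 0.0785).

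Pluripotency and early lineage factors were higher at 1 of 21 tested, *TFAP2C*, and lower at 4, with a median of -0.34. *SOX2* was at 63.6, 39.9 and 55.1 in SCNT4c-TDG and at 399, 286 and 298 in SCNT4c-KG (log2 fold change -2.62, SE 0.81, limma adjusted p = 0.0384). *DPPA5* had means of 13216 and 38403 and *DPPA4* 145 and 526. *DUXA*, a homeobox gene of genome activation, had means of 3531 and 9689, with 13076 in SCNT4c. *NANOG*, *POU5F1* and *LEUTX* were not called. None of the 4 lower calls was kept after correction for length and GC. This list then held 3 higher and none lower, and with the same total in each library 2 higher and 2 lower. A lost call need not mean a lost difference: *DPPA4* had a log2 fold change of -2.07 to -1.43 under all 21 alternatives. *SOX2* lost the call whichever 1 of the 6 libraries was left out (limma adjusted p of 0.079 to 0.134). *DPPA5* was not called without SCNT4c-KG replicate 1 or SCNT4c-TDG replicate 2 (limma adjusted p of 0.0674 to 0.068). *DPPA4* was not called without SCNT4c-KG replicate 1 or 3 or SCNT4c-TDG replicate 1 or 2 or 3 (limma adjusted p of 0.0596 to 0.105).

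A pair of imprinted neighbours on chromosome 2 (Sscrofa11.1) went opposite ways. *CDKN1C* (2019391 to 2022092, minus strand), a cell cycle inhibitor, was at 304, 65.2 and 133 in SCNT4c-TDG and at 2733, 4061 and 2316 in SCNT4c-KG, a log2 fold change of -4.40 (SE 0.72, limma adjusted p = 0.000967). *PHLDA2* (2057679 to 2058675, minus strand), a regulator of placental growth, was at 746, 543 and 966 against 140.5, 90.1 and 177, a log2 fold change of 2.47 (SE 0.73, limma adjusted p = 0.0309). In SCNT4c the means of *CDKN1C* and *PHLDA2* were 29.0 and 4.96, below both treated groups. They were the only members called of 16 imprinted genes tested, shares of 1 in 16 each way that are near the 7.07% higher and 9.13% lower over all features, and the median was -0.05. The 21 alternatives gave 1 to 5 imprinted genes and 1 to 13 germline genes called. Of 23 germline genes known for methylated promoters, 3 were higher, *SYCP2*, *TDRD6* and *TDRD1*, and 2 lower, with a median of 0.24. These counts too stand beside 7.07% higher and 9.13% lower over all features. Of those 3, *SYCP2* (limma adjusted p = 0.105) and *TDRD1* (limma adjusted p = 0.184) were not called with the length and GC correction, where the list held 1 higher and 2 lower. Under all 21 alternatives the log2 fold change was at least 2.55 for *SYCP2* and 0.999 for *TDRD1*. *TDRD6*, of germ granules, was at 636, 521 and 596 against 63.7, 118 and 142, while *SYCP3*, a synaptonemal complex protein, was at 3959.6, 817 and 5875 against 13254, 17982 and 15754. *TDRD1* lost the call whichever 1 of the 6 libraries was left out (limma adjusted p of 0.0731 to 0.123). *PHLDA2* was not called without SCNT4c-KG replicate 1 or 2 or SCNT4c-TDG replicate 1 or 2 or 3 (limma adjusted p of 0.0742 to 0.138). *SYCP2* was not called without SCNT4c-TDG replicate 1 or 2 (limma adjusted p of 0.0568 to 0.0642). *TDRD6* was not called without SCNT4c-KG replicate 1 or 2 or SCNT4c-TDG replicate 1 or 2 or 3 (limma adjusted p of 0.0533 to 0.0912).

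Genes of the DNA damage response were called in both directions. *ATM*, the kinase that answers double-strand breaks, was at 2005, 1957 and 2242 in SCNT4c-TDG and at 287, 253 and 322 in SCNT4c-KG (log2 fold change 2.85, SE 0.28, limma adjusted p = 2.18e-05), and at 584 to 777 in SCNT4c. *ATR*, its counterpart for stalled forks, had means of 450.4 and 72.4. The p53 target *ZMAT3* was higher and *BTG2*, another, lower, so that 3 of 17 genes of this list were higher and 1 lower, with a median of -0.25. With the same total 6 were higher and 1 lower, after correction for length and GC 2 and 2, and *ZMAT3* was not called (limma adjusted p = 0.0629). Nuclear pore and transport genes were higher at 9 of 26 and lower at 2, with a median of 0.48, beside 7.07% higher and 9.13% lower over all features. *NUP153*, of the nuclear basket, was at 1933, 2125 and 2282 against 332, 483 and 455 (log2 fold change 2.33, SE 0.33, limma adjusted p = 0.00031), and the importin *KPNA3* had means of 10756 and 2919.5. After correction for length and GC, 5 of these were higher and 3 lower, with a median of 0.06. Of 30 cell cycle genes 4 were higher, *RB1* among them (means 655 and 148), and 4 lower, such as *CCND2* (means 722 and 4024). These counts stand beside the same 7.07% and 9.13%, and the cell cycle median was 0.45, or -0.03 after correction.

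Lists of stress, proteasome and metabolic genes were counted in the same way, to be read beside 7.07% higher and 9.13% lower over all features. For the integrated stress response, 5 of 22 were lower and none higher, with a median of -0.28. *HSPA5*, the chaperone of the endoplasmic reticulum, was at 2557, 2701 and 1909.8 against 5239, 5689 and 7085 (limma adjusted p = 0.00957), and *TRIB3*, a target of ATF4, had means of 10.4 and 198. This list held 4 lower with the length and GC correction and 2 with the same total in each library, where its median was 0.08. Of 35 proteasome genes 8 were lower and 1 higher, with a median of 0.02. *PSMA6*, of the core particle, was at 224, 198 and 198 against 2164, 2117 and 2127, and *PSME4*, an activator, was the one higher gene, with means of 4278 and 989. The correction for length and GC left 3 proteasome genes lower and 2 higher. Interferon genes gave 1 higher and 2 lower of 19 (median 0.02) and fatty acid oxidation 2 higher and 3 lower of 21 (median -0.36), shares near the 7.07% and 9.13% over all features. Among those called, *ISG15* had means of 22.2 and 356, *OAS1* 147 and 1065, and *ACADM* 246 and 1146. Glycolysis, also near those shares, gave 2 lower of 18 (median 0.14), *ALDOC* and *LDHB*, and with the correction 1 higher and 1 lower of 17. On the list of histones and histone chaperones 2 of 9 were lower (median -0.29), the variant histone *H2AFZ* and the chaperone *ASF1B*. None of the 9 was called with the length and GC correction or with quantile normalization, and 1 was higher and none lower with the same total in each library. *HSPA5* was not called without SCNT4c-TDG replicate 3 (limma adjusted p = 0.0548). *ACADM* was not called without SCNT4c-KG replicate 2 or SCNT4c-TDG replicate 1 or 2 (limma adjusted p of 0.0541 to 0.0745). *LDHB* was not called without SCNT4c-KG replicate 1 or SCNT4c-TDG replicate 1 or 2 (limma adjusted p of 0.05 to 0.0837). *H2AFZ* was not called without SCNT4c-KG replicate 1 or SCNT4c-TDG replicate 3, where its difference was under 2-fold (log2 fold changes of -0.95 and -0.94).

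**Figure D3:**
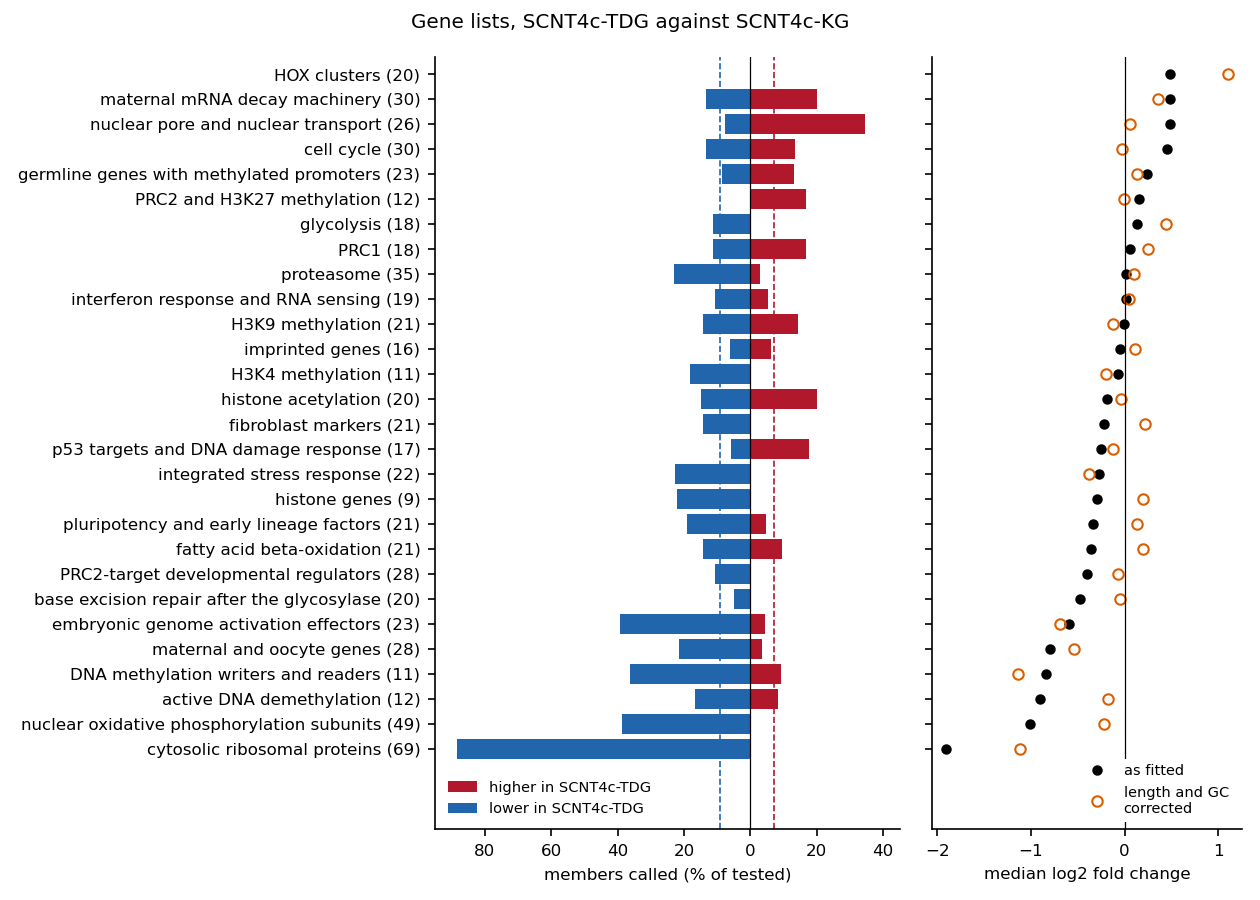
Left, percentage of tested members called higher or lower in SCNT4c-TDG for 28 gene lists (number tested in brackets), with dashed lines at the shares over all 18942 features, 7.07% and 9.13%. Right, the median log2 fold change of each list as fitted and after correction for transcript length and GC; ribosomal protein genes lie lowest as fitted, at -1.91, and DNA methylation genes after the correction, at -1.14, next to ribosomal protein genes at -1.11.

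The genes with the largest differences were compared with the untreated level, by group means on the log2(value + 1) scale. Among the 15 largest falls, SCNT4c lay nearer SCNT4c-TDG for 13, beside 988 (57.1%) of all 1730 called falls. *SNAI1*, a repressor of epithelial genes, was at 0, 3.07 and 0 in SCNT4c-TDG and at 199, 223 and 179.5 in SCNT4c-KG, with at most 0.789 in SCNT4c. *SGK1*, a kinase of stress and salt responses, was at 2.51, 3.84 and 6.12 against 498, 482 and 970.4 (log2 fold change -6.96, SE 0.73, limma adjusted p = 3.96e-05). *BMP4*, a signalling ligand, was at 22.6, 8.44 and 17.6 against 1227, 1123 and 1012 (log2 fold change -6.12, SE 0.88, limma adjusted p = 0.000375). *POLR1C*, a subunit shared by RNA polymerases I and III, and *PDRG1* had the same order, with means of 94.0 and 2699 and of 93.3 and 2968. *UFD1*, *MDH2*, *NOTCH3*, *SLC25A20*, *COTL1*, *ZBTB48*, *DPCD* and *ARHGAP1* completed those 13. The exceptions were *BHLHE22*, a helix-loop-helix factor, and *DYNLL2*, a dynein light chain. *BHLHE22* was at 36.8, 39.1 and 40.6 in SCNT4c-TDG, at 1567, 981 and 1254 in SCNT4c-KG and at 4917, 2307 and 2524 in SCNT4c, and *DYNLL2* had means of 69.8, 2139.7 and 5829.8.

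Among the 15 largest rises, picked in the same way, SCNT4c lay nearer SCNT4c-KG for 11. Over all 1340 called rises it did so for 566 (42.2%), but the choice of the 15 tilts this contrast. These counts depended on the scale: on the linear scale SCNT4c was nearer SCNT4c-KG for 14 of the 15 and for 715 (53.4%) of all called rises, and nearer SCNT4c-TDG for 13 of the 15 largest falls and 1117 (64.6%) of all. *CCNT2*, a cyclin of the elongation kinase P-TEFb, was at 144, 143 and 81.9 in SCNT4c-TDG, at 3.27, 1.27 and 2.85 in SCNT4c-KG and at 7.89, 8.74 and 9.13 in SCNT4c (log2 fold change 5.17, SE 0.84, limma adjusted p = 0.000933). *PURG*, a purine-rich element binding protein, was at 898, 983 and 788 against 44.1, 31.7 and 35.6 (log2 fold change 4.55, SE 0.71, limma adjusted p = 0.00063). *RIC8B*, *HNRNPLL*, *ZNF654*, *TNFSF9*, *SI*, *EPM2AIP1*, *PGAP1*, *ZNF300* and *SRSF12* completed those 11. In the other 4, *TMEM170B*, *LRRC58*, *PPP1R3C* and *LRBA*, SCNT4c was nearer SCNT4c-TDG on the log2 scale, and only for *TMEM170B* also on the linear scale: *TMEM170B* was at 471, 357 and 415 against 42.5, 2.54 and 25.6, with 543, 426 and 382 in SCNT4c. Among genes without a symbol, *LOC100525679* was at 0, 1.53 and 6.89 against 688, 793 and 707 and *LOC110262272* at 3.34, 5.37 and 17.6 against 1019, 1098 and 767. *LOC100511416* had means of 0.765 and 126 with 3 reads in SCNT4c-TDG, and *LOC102167557* means of 115 and 1.56 with 3 reads in SCNT4c-KG. *LOC110256700* and *LOC110259450* were higher, with means of 184 and 19.5 and of 406 and 24.6. Of these 36 genes, 35 were also called with the correction for length and GC. Of 449 tRNA entries only 8 were high enough to test, and 6 of these were lower and none higher, with a median of -5.37. Over all features 9.13% were lower. An entry that passes the filter through 1 group alone has its direction fixed, so these counts are not a result about tRNA genes. *ZNF654* was not called without SCNT4c-KG replicate 1 or SCNT4c-TDG replicate 1 or 3 (limma adjusted p of 0.0608 to 0.0658). *TNFSF9* was not called without SCNT4c-KG replicate 2 or SCNT4c-TDG replicate 2 (limma adjusted p of 0.0566 to 0.0579). *LOC110259450* was not called without SCNT4c-KG replicate 2 or 3 or SCNT4c-TDG replicate 2 or 3 (limma adjusted p of 0.054 to 0.0735).

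**Figure D4:**
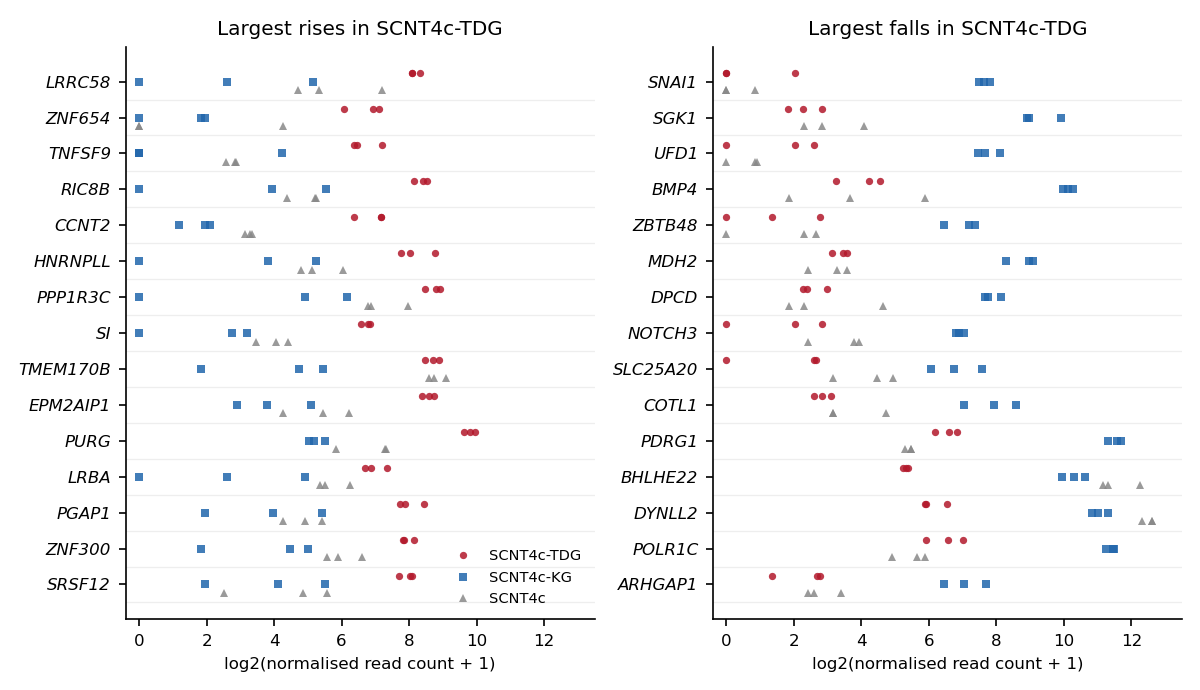
Normalised read counts, as log2(value + 1), in the 9 libraries of 4-cell embryos for the 15 largest rises and 15 largest falls by log2 fold change, SCNT4c-TDG against SCNT4c-KG. By group means on this log2 scale, SCNT4c lies nearer SCNT4c-TDG in 13 of the falls and nearer SCNT4c-KG in 11 of the rises. Choosing the genes by this same difference tilts both counts.

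Markers of donor fibroblasts and of cumulus cells, other cell types that an embryo pool could hold, were summed over each list. In SCNT4c the lists took 0.05003% to 0.0583% and 0.00883% to 0.0114% of reads. Of 21 tested fibroblast markers 3 were lower in SCNT4c-TDG and none higher (median -0.22): *SPARC*, *THY1* and *CALD1*. Over all features 9.13% were lower. The whole list took 0.0214% to 0.0284% of reads in SCNT4c-TDG, 0.0248% to 0.0459% in SCNT4c-KG and 17.9% to 18.7% in PFF, and *PDGFRA*, *COL5A1* and *FBN1* were listed at 0. None of 7 tested cumulus cell markers was called, the list took 0.00521% to 0.00641% and 0.00597% to 0.00886% of reads, and *INHA*, *INHBB*, *AMH*, *PTX3* and *FOXL2* were listed at 0. A marker listed at 0 does not show that such cells were absent. What part such cells had in the results above was not tested. Features of the Y chromosome had summed normalised counts of 7881 to 9797 in SCNT4c-TDG and 4308 to 5564 in SCNT4c-KG, and *EIF1AY* was not called (limma adjusted p = 0.783). *CALD1* lost the call whichever 1 of the 6 libraries was left out (limma adjusted p of 0.0627 to 0.112). *THY1* was not called without SCNT4c-TDG replicate 3 (limma adjusted p = 0.0544).

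Direction went with the composition of the transcript. Across 12745 annotated genes tested, in order from the quintile with the lowest GC content (up to 41.4%) to the quintile with the highest (from 56.8%), the median log2 fold change was 0.84, 0.35, -0.04, -0.52 and -0.62. In the lowest quintile 561 genes were higher and 94 lower, and in the highest 30 were higher and 401 lower. From the shortest transcripts (up to 1605 bases) to the longest (from 6352 bases) the medians were -0.49, -0.34, 0.05, 0.32 and 0.56. Over genes, which are not independent replicates, Pearson's r with the log2 fold change was -0.31 for GC content and 0.24 for log2 length. The same quintiles differed against SCNT4c: the lowest GC quintile had medians of 0.35 in SCNT4c-TDG and -0.52 in SCNT4c-KG, and the highest -0.23 and 0.43. After a smooth correction for both in each library, the medians of the GC quintiles lay between -0.06 and 0.04. Whether these differences came from library preparation or from the embryos' RNA was not tested. Of 130 named genes called and present in the corrected fit, 100 were called in the same direction there. Chromatin, transcription and ribosomal genes that kept their call included *DNMT1*, *KDM4C*, *CBX1*, *EZH1*, *KMT2A*, *DKC1*, *POLR2A* and *RPS20*, whereas *UHRF1*, *UHRF2*, *SUZ12*, *BMI1*, *SETDB2*, *SOX2* and *GADD45B* did not pass. Their corrected log2 fold changes were -2.79 for *UHRF1* (from -3.21), 1.67 for *UHRF2* (from 1.99), -1.99 for *SOX2* (from -2.62), 1.56 for *BMI1* (from 2.44), 1.11 for *SUZ12* (from 2.17), 0.89 for *SETDB2* (from 1.92) and -0.86 for *GADD45B* (from -1.75).

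**Figure D5:**
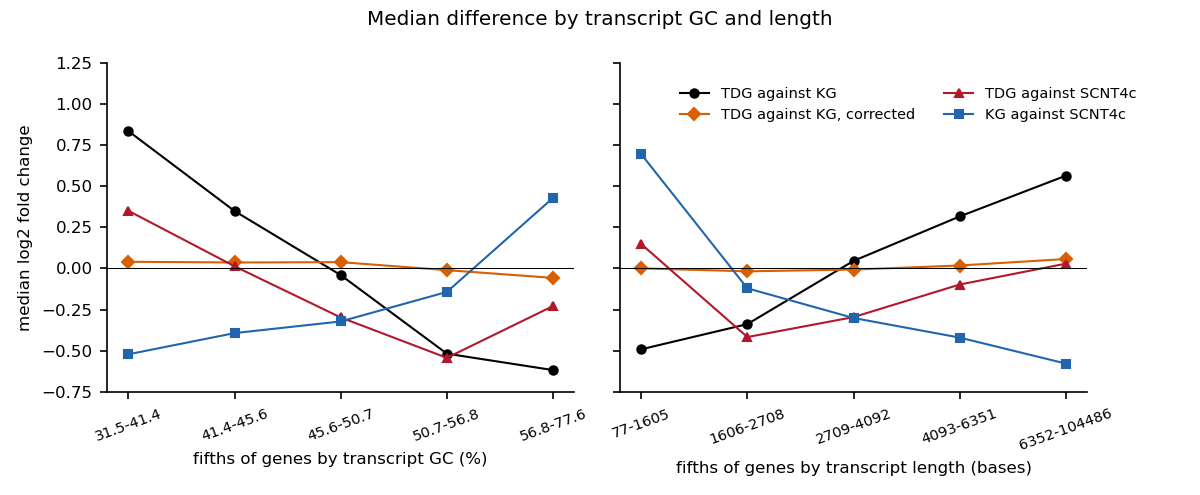
Median log2 fold change of 12745 genes in quintiles by transcript GC content (left) and length (right). SCNT4c-TDG against SCNT4c-KG runs from 0.84 to -0.62 with rising GC and from -0.49 to 0.56 with rising length, and the corrected fit stays near 0.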

How the data were processed

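RNA-seq was made from SMARTer-amplified cDNA of pooled embryos. Per the labels and the study's methods, the authors trimmed reads with Trimmomatic 0.39, aligned them with STAR 2.5.3a to Sscrofa11.1, used StringTie 2.1.2 for assembly and HTSeq for counting; the strand setting is not given in the sources used here. The deposited signal is the count per feature divided by 1 size factor per library. Dividing by the value of 1 read gave whole reads (within 0.01) for 100% of values in every library. Count tests on those reads called 2555 features with edgeR 4.0.16 and 3968 with DESeq2 1.42.0, so the number called depended on the test.

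Repeated identifiers (241 of 43535 entries) were removed, and where a symbol had 2 entries, that with the higher mean was used. The 12 embryo libraries were fitted together with limma 3.58.1 (R 4.3.3, intensity trend, pseudocount 1, mean of at least 10). The length and GC correction subtracted a smooth fitted in each library (mgcv 1.9.3). Named genes were the enzymes of the treatments, genes followed by the study, the 15 largest rises and 15 largest falls with non-overlapping replicates whose higher group averaged 100 or more, 3 LOC genes each way, and in each list up to 4 called members and that with the highest mean. Other genes named in the text were picked after their values were seen. The members and gene lists were chosen with earlier results of these data known. Settings other than the one reported are compared in the closing section. Some genes and promoter sequences are not reported here.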

Additional observations from a re-analysis of the deposited data

How the results depend on the processing

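The count of called features, 3070 (1340 higher, 1730 lower), became 4989 (2065 and 2924) with the 6 libraries fitted alone, 4731 (2055 and 2676) with the 9 libraries of the 4-cell stage, 1817 (715 and 1102) with the length and GC correction, which also kept only annotated genes (2596 uncorrected, 1172 and 1424), and 1837 (788 and 1049) at a fold change above 4. With the same total in each library 2051 were higher and 1145 lower. Leaving out 1 library gave 1794 to 2521 calls, 693 to 1124 higher and 1096 to 1397 lower. The total moved by over 1.5 times without SCNT4c-KG replicate 2 (2019) and without SCNT4c-TDG replicate 1 (1878), 2 (1809) or 3 (1794). Replicate numbers mark no shared batch in the labels, and the deviations of same-numbered libraries correlated at -0.001, -0.002 and 0.025, so the numbers pair nothing; a fit with the replicate block in the 6 libraries called 4805 (2041 and 2764). Chosen after seeing the data, leaving SCNT8c replicate 3 out of the fit gave 4456 calls and annotated known genes alone 2596.

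*TDG* stayed higher under all 21 alternatives and *KDM4A* was not called under any of them, although with the 6 libraries fitted alone (limma adjusted p = 0.0114) or with the replicate block (0.0118) it missed the call only by the fold limit. Signs turned for these named genes, of which *COX6A1* had been called. With the length and GC correction the log2 fold change was 0.10 for *GAPDH*, 0.0238 for *CSTF1*, 0.24 for *HOXC13* and 0.24 for *COX6A1*. With the same total it was 0.0765 for *GAPDH*, 0.0313 for *CSTF1*, 0.30 for *RBBP5*, 0.10 for *BRDT* and 0.0403 for *EIF1AY*. With quantile normalization it was 0.0632 for *RRM2B*, 0.39 for *RBBP5*, 0.59 for *BRDT*, 0.0211 for *NPM1* and 0.26 for *IGF2BP3*. For *RBBP5* it was 0.0576 with DESeq2 and 0.0806 with edgeR. Leaving out 1 library gave -0.0152 to 0.207 for *EZH2*, -1.69 to 0.16 for *TRIM8*, -0.223 to 0.0773 for *RBBP5*, -0.0817 to 0.106 for *PSMA2* and -0.571 to 0.0808 for *EIF1AY*. None of the others was called, and the cause was not tested. Low counts in SCNT4c-KG, the shallower group, limit the genes near 0 there.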
